A study of Homo sapiens with 4 samples.

Results

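The genes described here are the 249 protein-coding genes of chromosome 19 whose symbol starts with ZNF. They were chosen by symbol, gene type and chromosome in the GENCODE 29 annotation and were found among the 60483 gene identifiers of the count files, of which 19645 are protein-coding. The series holds 4 RNA-seq libraries, in 2 groups, of the human prostate cancer line C4-2. The group C4-2-CON (2 libraries) is labelled as the control phenotype, and the group C4-2-ENZ (2 libraries) as resistant to enzalutamide, a medicine for prostate cancer. The culture was run with or without the drug for 1 month, in RPMI medium with fetal bovine serum, and the medium entry of both groups also names FGF-2. Both groups carry the same range of passage numbers. The labels do not say whether the drug was present at harvest, so drug exposure and the resistant state cannot be told apart. They also do not say that the 2 libraries of a group are separate cultures, and the spread behind each p-value may be technical. The comparison asks which ZNF genes differ in RNA level between the resistant and the control cells, and where along the chromosome they lie.

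Most of these genes encode C2H2 zinc finger proteins, in which each finger holds a zinc ion with a pair of cysteines and a pair of histidines and reads a few bases of DNA. Many of them also carry a KRAB domain, which recruits the co-repressor TRIM28 (KAP1) and, through it, the histone methyltransferase SETDB1 and the HP1 proteins, and so places the silencing mark H3K9me3. The family grew by repeated tandem duplication, which left dense clusters of related genes on chromosome 19, and many members bind transposable elements.

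The promoters are shown first, since many of those in the cluster from ZNF101 to ZNF254 resemble each other. A link between promoter sequence and RNA level was not tested. RefSeq promoter windows (GRCh38.p14), 250 bases before to 50 bases after the start of the gene, were found for 217 of the 249 genes. The letters TCCAATCA, which contain the CCAAT box, were present on either strand in 24.4% of these windows and in 1.36% of the 14612 windows of other protein-coding genes. This word was chosen after the promoters had been compared. It was found in 29 of 29 windows of the cluster from ZNF101 to ZNF254, in 20 of 25 of the cluster from ZNF653 to ZNF791, in 4 of 5 of the cluster from ZNF554 to ZNF77, and in 0% of the windows of the other 6 clusters. The following 30-base stretches surround the copy nearest to the start of the gene. They are shown for those genes named by rule, as set out under the processing of the data, that hold one. ZNF737 of the ZNF101 to ZNF254 cluster, called higher in C4-2-ENZ, also holds the word. It is not named by rule and is left out, as are other genes of that cluster. TCCAATCA is in capitals, and each stretch reads 5′ to 3′ on the strand of the gene.
ZNF77 (chr19:2944976-2945005, minus strand): cccgagatctgTCCAATCAgaccccgagga
ZNF627 (chr19:11597377-11597406, plus strand): atgtcaccctaTCCAATCAggggcgctggg
ZNF625 (chr19:12156780-12156809, minus strand): ctggagcctcaTCCAATCAggggcgctggg
ZNF93 (chr19:19900878-19900907, plus strand): ggctggaaacgTCCAATCAggcaagcagcc
ZNF85 (chr19:20923187-20923216, plus strand): gctgggaaccgTCCAATCAggaacgcagct
ZNF100 (chr19:21767613-21767642, minus strand): gctggaaaccgTCCAATCAggcatgcagct
ZNF724 (chr19:23250429-23250458, minus strand): gctggggaccgTCCAATCAggcacgcaact
ZNF91 (chr19:23395512-23395541, minus strand): gctgggaactgTCCAATCAggcacaaagct
ZNF675 (chr19:23687218-23687247, minus strand): gctgggaaccgTCCAATCAggcacgcagct
ZNF681 (chr19:23758931-23758960, minus strand): gctgggaactgTCCAATCAggcatgcagct
ZNF726 (chr19:23914816-23914845, plus strand): cctgggaactgTCCAATCAggcacgcagct
Read against ZNF91, the stretch had the same base at 21 to 27 of 30 positions in the other genes shown from ZNF93 to ZNF726. It had the same base at 20 in ZNF77, which lies outside this cluster, and at 14 in ZNF627 and ZNF625. These counts include the letters of TCCAATCA itself, which match in every stretch by choice. ZNF91 was higher in C4-2-ENZ, and its neighbours ZNF724 (25 positions) and ZNF675 (27 positions) were lower.

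Longer windows show how far the likeness extends. They are given for 3 genes of the ZNF101 to ZNF254 cluster with lower RNA in C4-2-ENZ, up to 250 bases before the RefSeq start and ending where the first GENCODE 29 exon begins, with TCCAATCA and CCGGAAG on either strand in capitals.
ZNF85 (chr19:20923001-20923221, plus strand): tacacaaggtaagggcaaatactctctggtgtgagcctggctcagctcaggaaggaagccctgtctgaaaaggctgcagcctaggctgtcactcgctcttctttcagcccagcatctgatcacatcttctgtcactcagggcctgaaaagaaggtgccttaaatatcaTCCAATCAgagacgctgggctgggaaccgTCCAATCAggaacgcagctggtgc
ZNF724 (chr19:23250395-23250644, minus strand): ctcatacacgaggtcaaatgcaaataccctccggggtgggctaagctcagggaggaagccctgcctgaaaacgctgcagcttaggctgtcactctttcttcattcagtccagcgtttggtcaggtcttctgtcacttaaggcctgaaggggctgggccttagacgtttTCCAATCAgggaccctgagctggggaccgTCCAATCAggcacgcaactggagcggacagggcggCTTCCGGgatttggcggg
ZNF675 (chr19:23687221-23687462, minus strand): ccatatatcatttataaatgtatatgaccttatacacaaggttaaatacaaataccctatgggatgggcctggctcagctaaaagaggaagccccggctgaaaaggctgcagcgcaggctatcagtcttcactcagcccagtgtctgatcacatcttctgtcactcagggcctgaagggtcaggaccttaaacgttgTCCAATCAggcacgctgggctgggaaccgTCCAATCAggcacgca
Over the 250 bases before the start, the ZNF91 promoter was 80.9% identical to that of ZNF85, 78.2% to that of ZNF724 and 62.8% to that of ZNF675. The TCCAATCA nearest to the start begins 59 bases before it in ZNF91, 53 in ZNF85 and ZNF724, and 24 in ZNF675. The windows are thus placed differently, and a lower identity need not mean a more diverged promoter. No identity to promoters outside the cluster is given here. Against the other 28 windows of the cluster its identity ran from 51.9% (ZNF429) to 86.4% (ZNF208), with a median of 80.0%. The letters CCGGAAG stood in 99 of the 217 windows of members and in 2046 of those of other protein-coding genes.

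The libraries held 25589724 and 29866008 counts on genes in C4-2-CON and 45033885 and 39047453 in C4-2-ENZ. Reads that were not aligned made up 34.2% to 37.0% of the records in C4-2-CON and 20.3% to 20.7% in C4-2-ENZ, and reads aligned to several places 26.7% to 28.3% and 22.7% to 24.0%. Both shares moved with the groups, and their part in the differences below was not tested. The 8 prostate luminal markers used, among them KLK3, were all detected, at a summed 2890.1 to 2945 CPM (counts scaled to library size) in C4-2-CON and 3563 to 3578 in C4-2-ENZ. The fibroblast markers summed to at most 11.1 CPM, with COL1A2 at 0 in all libraries, the endothelial markers to at most 4.66 and the leukocyte markers to at most 0.428, with CD3E at 0 in all libraries. In bulk RNA, fewer cells with a transcript and less of it per cell cannot be told apart.

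Of the 249 genes, 234 had enough counts to be tested. C4-2-ENZ was higher in 90 of them and lower in 71, and 73 were not called (edgeR quasi-likelihood test, called at a Benjamini-Hochberg adjusted p below 0.05 over 20325 genes). Called genes were 68.8% of the members tested, and 64.7% of all genes tested were called, 33% higher and 31.7% lower. The share of called members is thus near the share of all genes. Among all genes tested, both C4-2-ENZ libraries lay above both controls in 40.4% and below both in 40.9%. The members named below as the largest rises and falls were chosen among called genes with such groups, so lack of overlap is no finding in them. The median log2 fold change of the members was 0.058, against −0.016 for all genes. With libraries scaled by their total gene counts instead of by TMM (edgeR's trimmed mean of M-values), the median of all genes rose by 0.19 to 0.17 with 8615 genes higher and 4761 lower, and the members split into 120 higher and 41 lower with a median of 0.25. Scaling shifts all genes nearly alike, so the gap of 0.074 between the medians of members and of all genes is the same under both by construction. The gap was 0.0039 when CPM above 1 in 2 libraries was required and 0.13 with no filter on low counts.

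Most changes were small. Of the 161 called members, 110 changed by less than 1.5-fold, 41 by 1.5- to 2-fold and 10 by at least 2-fold. The 10 comprised 8 higher and 2 lower members, while 7.58% of all genes were called at least 2-fold higher and 10.1% at least 2-fold lower. Summed over all members, the RNA level was 5185 and 5012 CPM in C4-2-CON and 4976 and 4960 CPM in C4-2-ENZ, so the rises and falls nearly cancelled in the total. Members were expressed at low to moderate levels, with 218 at a mean of at least 1 CPM, 153 at 10 or more and 3 (ZNF121, ZNF91 and ZNF146) at 100 or more.

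**Figure D1:**
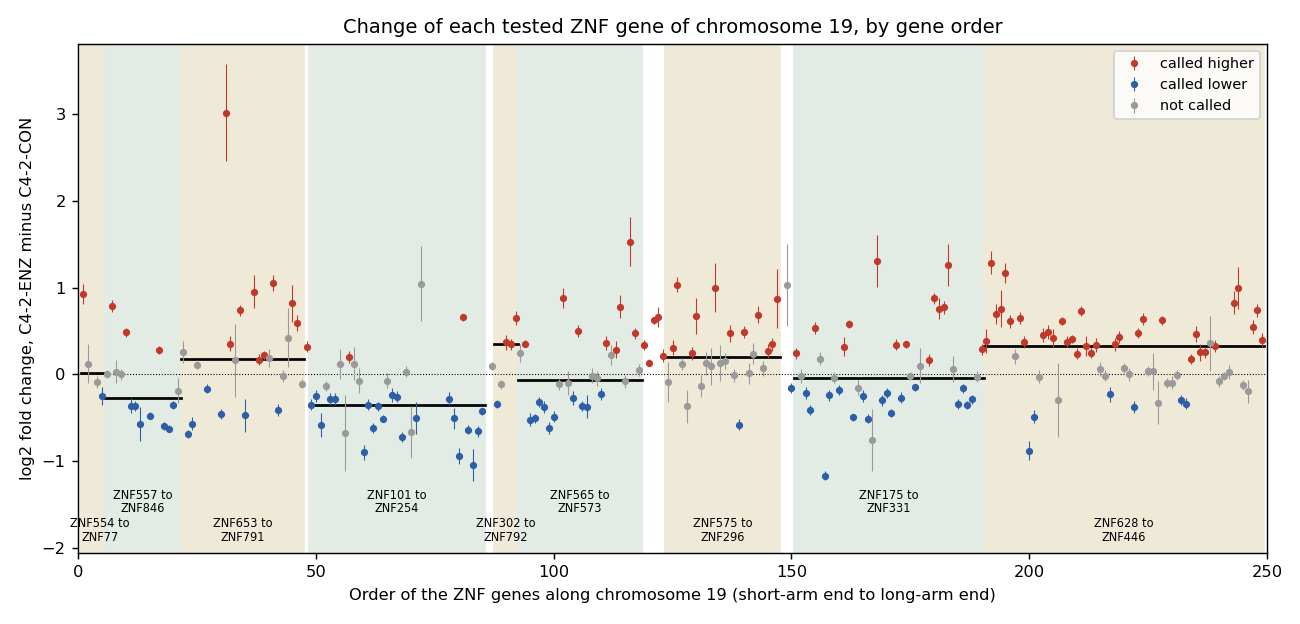
Log2 fold change (C4-2-ENZ minus C4-2-CON, y axis) of the 234 tested ZNF genes in their order along chromosome 19 (x axis). Points are genes coloured by call, bars are standard errors, shaded bands are the 9 clusters of at least 5 genes and black lines are cluster medians. The medians run from −0.35 in the ZNF101 to ZNF254 cluster to 0.35 in the ZNF302 to ZNF792 cluster.

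The genes fell into 16 clusters where a gap of more than 1 Mb was taken as a border, and 9 of these held at least 5 genes and 238 genes in all. Of 105 pairs of neighbours that were both called, 80 had the same direction and 25 opposite directions. The share among other neighbouring genes was not computed, so these counts show nothing particular to the members. Some pairs share exons, such as ZNF559 and ZNF559-ZNF177. Differences between clusters were not tested, since genes of a cluster share position, sequence and libraries, and the counts and medians below describe them. Genes outside the rule for named genes, such as ZNF317, ZNF426, ZNF599, ZNF30 and ZNF583, are named to account for small counts or neighbours, after their values were seen.

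From the short-arm end, the first cluster (ZNF554 to ZNF77, chr19:2819874-2944971) held 5 genes, of which 4 were tested. ZNF554, a KRAB zinc finger gene, was at 4.24 and 5.42 CPM in C4-2-CON and at 9.62 and 8.78 in C4-2-ENZ. The log2 fold change was 0.92 (SE 0.12, edgeR adjusted p = 2.47e-05). ZNF77, at the other end, was at 6.71 and 6.45 against 5.62 and 5.45 CPM. Its fall of 0.25 on the log2 scale passed the test by a small margin (edgeR adjusted p = 0.0497), and the call was lost when any 1 of the 4 libraries was left out and under each other alternative, apart from the filter at CPM above 1.

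The second cluster (ZNF557 to ZNF846, chr19:7069444-9793180) was lower on balance, with 3 of 14 tested genes higher, 7 lower and a median of −0.27. Total gene count scaling gave 5 higher and 5 lower with a median of −0.081, and a correction for gene length and GC content 3 and 6 with −0.14. Several of the lower genes are among the more highly expressed members. ZNF121 was at 249 and 233 CPM in C4-2-CON and 159 and 161 in C4-2-ENZ, a log2 fold change of −0.59 (SE 0.043). ZNF266 (82.8 and 82.4 against 60.2 and 58.6 CPM) and ZNF561 (71.5 and 72.3 against 45.9 and 47.6 CPM) fell by 0.47 and 0.62. In each of the 3 genes both resistant libraries lay under both controls, as the rule for named genes required of ZNF561. Their edgeR adjusted p-values were between 9.71e-08 and 1.12e-06. Of the others called lower, ZNF559-ZNF177 is a read-through transcript unit that shares exons with ZNF559, so their counts are uncertain. The rises were ZNF358 (11.1 and 11.8 against 20.5 and 19.1 CPM, 0.79), ZNF317 (0.48) and ZNF426 (0.28). ZNF358 lies on the far side of a gap of over 0.5 Mb from ZNF414 to ZNF846. The 32 tested protein-coding genes inside the same span that are no zinc finger genes went mostly the other way, with 16 higher, 4 lower and a median of 0.21.

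The third cluster (ZNF653 to ZNF791, chr19:11483427-12640098) was mixed, with 9 of 22 tested genes higher, 6 lower and a median of 0.18. Total gene count scaling gave 12 higher and 4 lower. ZNF627 carried the smallest adjusted p. It was at 92.5 and 92.7 CPM in C4-2-CON and at 58.2 and 56.9 in C4-2-ENZ, which is −0.69 on the log2 scale (SE 0.042, edgeR adjusted p = 4.48e-08). ZNF442, with 14 fingers, was at 6.12 and 5.45 CPM against 12.5 and 11.5 and rose by 1.06. ZNF844 (13.1 and 12.8 against 22.1 and 21.1 CPM) rose by 0.74. ZNF625 (1.05 and 1.10 against 2.03 and 2.15 CPM) rose by 0.95, but 81.4% of its 50-base words also occur in other genes and its exons overlap 2 genes on the same strand, so its counts are uncertain. ZNF763, singled out after its values were seen because it stands apart in the plot by gene order, had 2 and 1 counts in C4-2-CON and 24 and 20 in C4-2-ENZ. ZNF763 passed the filter on low counts only through C4-2-ENZ, where it is high. Its call is therefore no support, although it is counted among the 9 higher genes of the cluster and the 8 members called at least 2-fold higher. The depth-corrected ratio of its summed counts was 8.49, with an exact 95% interval of 2.72 to 42.7 that covers counting error only. Since the gene was picked by its values, the interval is no test. Its 50-base words are shared with other genes to 49.1% and its exons overlap 1 gene on the same strand, so these counts are uncertain too.

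The fourth cluster, from ZNF101 to ZNF254 (chr19:19668796-24129961), on the short-arm side of the centromere, was mostly lower. Of 32 tested genes 21 were lower and 2 higher, and the median log2 fold change was −0.35. It holds 37 genes over 4.46 Mb, 34 of them with a KRAB pattern, and their summed level was 827 and 778 CPM in C4-2-CON and 667 and 671 in C4-2-ENZ. The median stayed negative with total gene count scaling (−0.16, 4 higher and 14 lower, at an all-gene median of 0.17) and with the length and GC correction (−0.22, 5 higher and 15 lower). The genes of this cluster had the lowest median GC content of the 9 clusters (37.6%), and the call counts shifted with that correction.

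ZNF100 had the smallest adjusted p of the falls there. It was at 41.9 and 40.4 CPM in C4-2-CON and at 24.5 and 25.7 in C4-2-ENZ, which is −0.72 on the log2 scale (SE 0.055, edgeR adjusted p = 3.53e-07). ZNF675 (42.7 and 41.1 against 26.6 and 27.4 CPM) fell by 0.63 and ZNF726 (19.3 and 19.7 against 12.7 and 12.04 CPM) by 0.65. ZNF85 was at 13.1 and 11.9 CPM against 6.51 and 6.92 and fell by 0.89. ZNF681 (3.02 and 2.53 against 1.45 and 1.21 CPM) fell by 1.05 and is 1 of the 2 members called at least 2-fold lower. ZNF724 (13.6 and 11.9 against 6.86 and 6.39 CPM) fell by 0.94, with 48.7% of its 50-base words shared with other genes, so its counts are less certain. ZNF93, which represses LINE-1 elements, was at 11.3 CPM in both controls and at 9.46 and 9.14 in C4-2-ENZ. Its fall of 0.28 (edgeR adjusted p = 0.00558) was not called in 5 of the alternatives. They were the test without C4-2-ENZ replicate 2 (−0.24), total gene count scaling (−0.093), no filter on low counts (−0.18), DESeq2 (−0.28) and the replicate block with the length and GC correction (−0.18).

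ZNF91 went the other way within this cluster. ZNF91 represses SVA elements and has 32 fingers. It lies at chr19:23304991-23395560 on the minus strand, between ZNF724 and ZNF675. It was at 80.0 and 77.3 CPM in C4-2-CON and at 124 and 123 in C4-2-ENZ, so both resistant libraries were above both controls by more than the spread within either group. The log2 fold change was 0.66 (SE 0.043, edgeR adjusted p = 7.65e-08). The other higher gene of the cluster, ZNF737, changed less (15.1 and 15.3 against 16.9 and 18.2 CPM, 0.20, edgeR adjusted p = 0.0185), and its call was lost with DESeq2, with the filter at CPM above 1 and in the test without C4-2-ENZ replicate 2, which left 1 higher gene. ZNF91 stood at 9.74 CPM per kilobase of exon on average, against a median of 2.84 in the cluster.

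**Figure D2:**
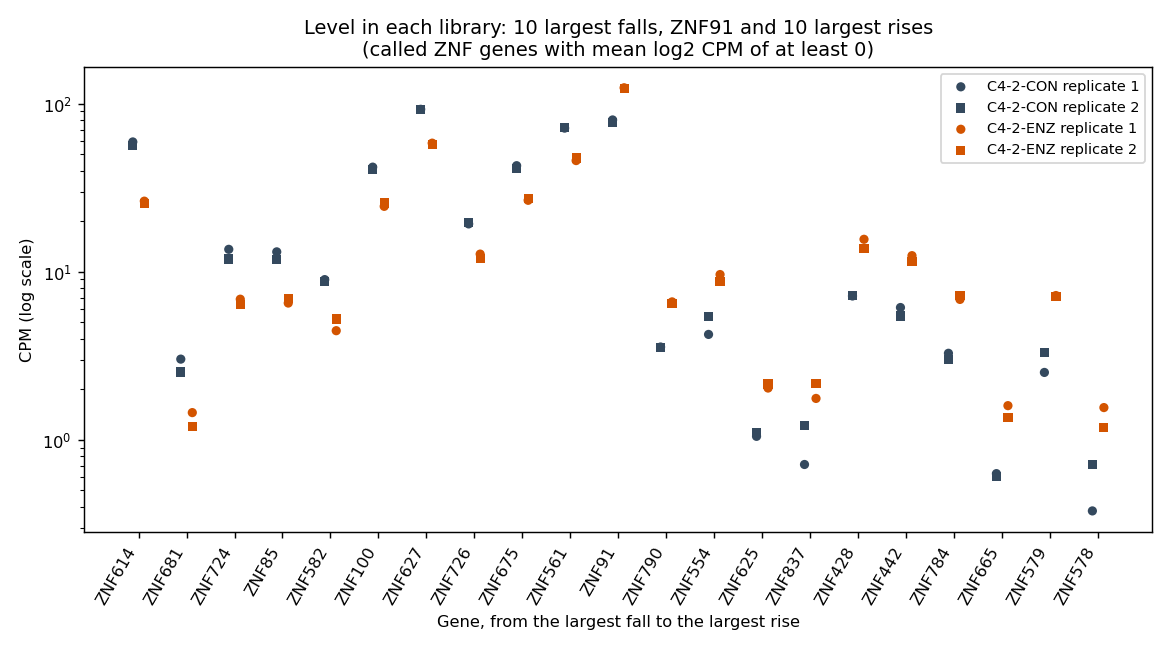
CPM in each of the 4 libraries (y axis, log scale) for the 10 largest falls, ZNF91 and the 10 largest rises (x axis; called ZNF genes whose mean log2 CPM was 0 or more). Circles and squares are the first and second library of each group, dark for C4-2-CON and orange for C4-2-ENZ. The rises and falls were chosen among genes whose groups do not overlap, and those of ZNF91 (80.0 and 77.3 against 124 and 123 CPM) do not overlap either.

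The fifth cluster (ZNF302 to ZNF792, chr19:34677639-34964049) held 5 genes, all tested. ZNF792 (8.43 and 7.80 against 12.8 and 12.6 CPM, 0.65), ZNF599 (0.37) and ZNF30 (0.35) were higher. ZNF302 was lower, from 60.2 and 59.9 to 48.2 and 46.8 CPM, a fall of 0.34 on the log2 scale. The median of the cluster was 0.35, but its summed level was 130.3 and 130.7 CPM in C4-2-CON and 129 and 125 in C4-2-ENZ, because ZNF302 made up much of the sum.

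In the sixth cluster (ZNF565 to ZNF573, chr19:36182060-37817300), 8 of 26 tested genes were higher and 10 lower. The median was −0.062. It turned to 0.13, with 11 higher and 6 lower, under total gene count scaling and to 0.011 with the length and GC correction. ZNF146 (OZF), a protein made almost wholly of zinc fingers, had the highest level per kilobase of all members (41.3 CPM per kilobase of exon). It was at 153 and 149 CPM in C4-2-CON and at 194 and 190.4 in C4-2-ENZ, a rise of 0.35 (SE 0.039, edgeR adjusted p = 8.56e-06). ZNF260 went down, from 91.4 and 86.7 to 60.7 and 64.8 CPM (0.50 lower on the log2 scale). ZNF790 (3.57 and 3.53 against 6.62 and 6.44 CPM) rose by 0.88. ZNF781, which was singled out after its values were seen as 1 of the 8 members called at least 2-fold higher, rose from 0.419 and 0.392 to 1.06 and 1.30 CPM (1.53, SE 0.28).

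The seventh cluster (ZNF575 to ZNF296, chr19:43525497-45076588) had 11 of 24 tested genes higher and 1 lower, with a median of 0.20. Its first genes include ZNF428, whose protein has 1 finger by the pattern used. ZNF428 was at 7.17 and 7.20 CPM in C4-2-CON and at 15.6 and 13.7 in C4-2-ENZ, a rise of 1.03 (SE 0.088, edgeR adjusted p = 8.00e-07). The fall was ZNF226, from 28.6 and 30.2 to 20.0 and 19.5 CPM (0.58 lower, edgeR adjusted p = 4.65e-06). Its near relatives ZNF227 (0.49) and ZNF225 (0.47) were higher, both named after their values were seen. With DESeq2 in place of edgeR, 5 genes of the cluster were called higher and 1 lower. The 18 tested protein-coding genes of the same span that are no zinc finger genes had a median of 0.33, with 8 higher and 2 lower.

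The eighth cluster (ZNF175 to ZNF331, chr19:51571298-53580269) held 40 genes, with 13 of 39 tested genes higher and 17 lower and a median of −0.035. Total gene count scaling gave 17 higher and 7 lower with a median of 0.15, DESeq2 gave 11 and 11, and the test without C4-2-ENZ replicate 1 called 10 genes lower. ZNF614 showed the largest fall, with the smallest adjusted p, of the members tested. It was at 59.2 and 56.7 CPM in C4-2-CON and at 26.3 and 25.4 in C4-2-ENZ. The groups lay far apart beside the spread within each. The log2 fold change was −1.16 (SE 0.052, edgeR adjusted p = 3.04e-09). ZNF614 (chr19:52012765-52030240, minus strand) has no overlapping exon of another gene on either strand, and 1.62% of its 50-base words are shared.

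A run of 4 neighbours further along the eighth cluster, picked out after their values were seen, was higher in C4-2-ENZ. Between this run and the last gene of the cluster, ZNF845, ZNF525, ZNF765 and ZNF761 were called lower. ZNF160 rose from 30.2 and 26.2 to 51.2 and 52.0 CPM (0.88, SE 0.064, edgeR adjusted p = 2.19e-07). ZNF415 (3.82 and 3.39 against 6.22 and 5.89 CPM) rose by 0.76 and ZNF347 (11.3 and 10.2 against 18.5 and 18.1 CPM) by 0.77. ZNF665 (0.629 and 0.606 against 1.597 and 1.35 CPM) rose by 1.26. In each the controls lay below both resistant libraries, as the rule for named genes required of ZNF665. ZNF578, further to the short-arm side, had 9 and 20 counts in C4-2-CON and 75 and 49 in C4-2-ENZ (1.30, SE 0.30). ZNF350 (ZBRK1), a BRCA1-binding repressor, rose from 12.5 and 11.7 to 18.3 and 16.7 CPM (0.54). ZNF331, an imprinted gene, was at 27.4 and 24.9 against 32.8 and 30.9 CPM, and its rise of 0.29 (edgeR adjusted p = 0.00206) was not called after the length and GC correction (0.043, edgeR adjusted p = 0.538), with or without the replicate block.

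The ninth cluster (ZNF628 to ZNF446, chr19:55476332-58481230), at the long-arm end, was the largest and was mostly higher. Of 59 genes, all tested, 34 were higher and 6 lower, and the median was 0.33. Its summed level was 968 and 954 CPM in C4-2-CON and 1132 and 1122 in C4-2-ENZ. The length and GC correction gave 29 higher and 10 lower with a median of 0.17, and total gene count scaling 43 and 3 with 0.51. The 19 tested protein-coding genes of the same span that are no zinc finger genes split evenly, with 7 higher, 7 lower and a median of −0.0089. At 0.5 Mb as the border, the cluster parts into 16 genes from ZNF628 to ZNF835 and 43 from ZNF264 to ZNF446.

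At the near end of this cluster 5 neighbours rose together, picked out as a run after their values were seen. ZNF628, the first gene of the cluster and next to them, was also called higher (0.38, edgeR adjusted p = 0.0322). ZNF579 was at 2.52 and 3.31 CPM in C4-2-CON and at 7.22 and 7.14 in C4-2-ENZ (1.29, SE 0.13, edgeR adjusted p = 4.52e-06). ZNF784 (3.27 and 2.99 against 6.84 and 7.19 CPM) rose by 1.17. ZNF524 (0.70), ZNF865 (0.76) and ZNF580 (0.61) lie beside ZNF579 and ZNF784. Exons of ZNF580 overlap 2 genes on the same strand, and those of ZNF524 overlap 1 gene on the opposite strand. None of the 5 has the KRAB pattern, and the GC content of their exons, 61.7% to 71.1%, is above the median of the members (42.2%). Further on, ZNF264, a KRAB gene with 13 fingers, had the smallest adjusted p of the rises in the cluster, from 51.5 and 49.1 to 77.3 and 76.7 CPM (0.62, SE 0.044, edgeR adjusted p = 1.58e-07). ZNF460, the third highest member per kilobase (25.6 CPM per kilobase of exon), rose from 80.4 and 74.3 to 102 and 103 CPM (0.41). ZNF837 (0.713 and 1.21 against 1.76 and 2.17 CPM) rose by 0.99. Against this trend ZNF582 fell from 8.98 and 8.77 to 4.46 and 5.24 CPM (0.88 lower, edgeR adjusted p = 1.77e-05), as did its neighbour ZNF583 (0.49 lower). ZNF274, which brings SETDB1 to the 3′ ends of other ZNF genes, was at 29.8 and 31.2 against 30.2 and 27.6 CPM and was not called (−0.077, edgeR adjusted p = 0.299). After the length and GC correction it was called lower (−0.37, edgeR adjusted p = 5.37e-05), and with total gene count scaling its value was 0.11 and not called.

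**Figure D3:**
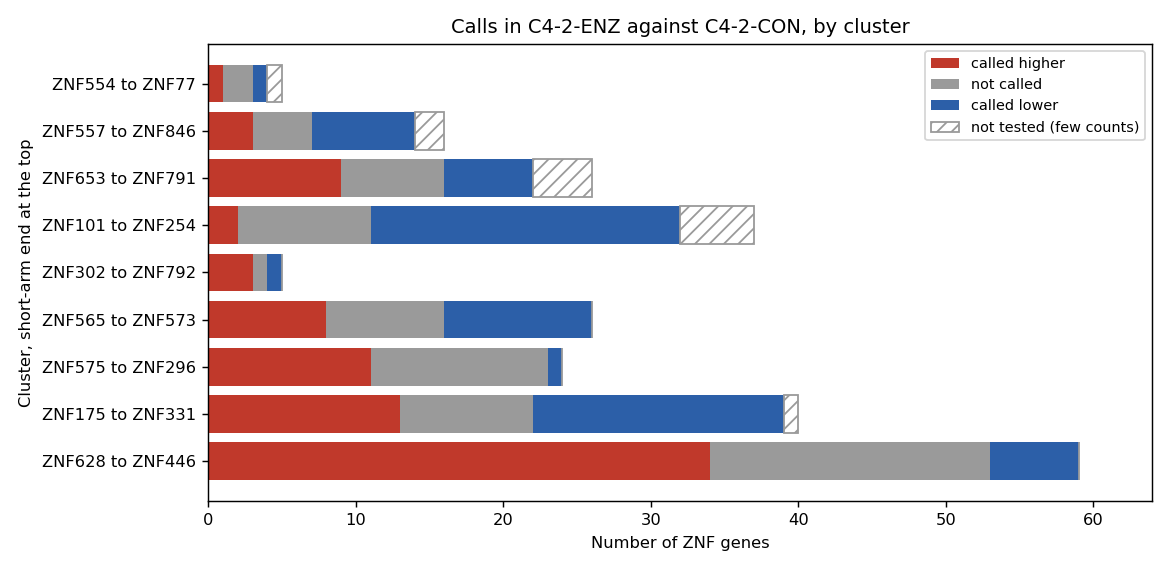
Number of ZNF genes (x axis) called higher, not called, called lower and not tested in each cluster of at least 5 genes (y axis, short-arm end at the top). Lower calls dominate in the ZNF101 to ZNF254 cluster (21 of 32 tested) and higher calls in the ZNF628 to ZNF446 cluster (34 of 59).

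The 11 genes outside these clusters gave 6 higher, 1 lower and 2 not called among 9 tested. ZNF546, ZNF780B and ZNF780A, which lie together, were higher by 0.34, 0.14 and 0.62. ZNF574 and ZNF526 were higher by 0.66 and 0.22, and ZNF333 by 0.32. These were named to account for the counts after their values were seen. ZNF473, whose protein takes part in the 3′ end processing of histone mRNAs, was at 22.5 and 22.1 CPM against 20.5 and 19.5. Its fall of 0.16 on the log2 scale (edgeR adjusted p = 0.0421) was not called when any 1 library was left out, with DESeq2, with no filter on low counts or with the replicate block, and with total gene count scaling its value was 0.033.

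**Figure D4:**
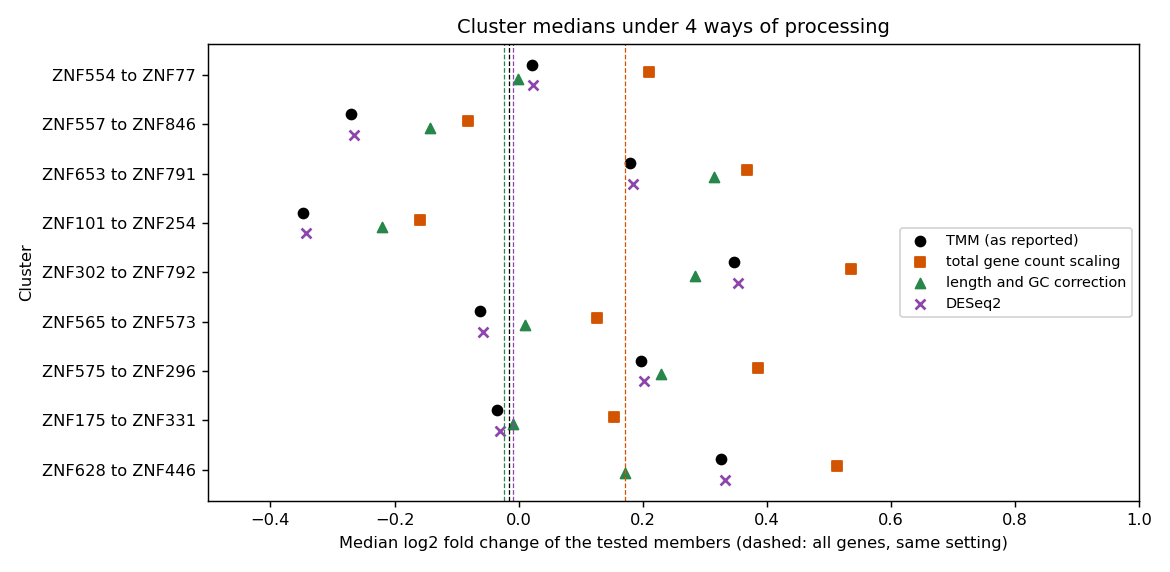
Median log2 fold change of the tested members of each cluster (x axis; y axis, clusters from the short-arm end) under TMM, total gene count scaling, the length and GC correction and DESeq2. Dashed lines are the medians of all genes under the same setting, −0.016 with TMM and 0.17 with total gene count scaling. The ZNF101 to ZNF254 and ZNF557 to ZNF846 clusters lie left of the dashed line of every setting shown, and the ZNF628 to ZNF446 cluster lies right of it, by 0.34 with TMM and by 0.19 after the length and GC correction.

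Sequence features differed between higher and lower members in part. The median number of C2H2 fingers was 13 in higher and 12 in lower members, with a range over all members of 0 (ZNF738 and the read-through unit ZNF816-ZNF321P) to 39 (ZNF729). Lower members had longer exonic sequence (median 6289 bases against 4637.5 in higher ones), a lower GC content (40.4% against 43.9%) and a higher level (24.6 against 12.8 CPM). A KRAB box pattern widened after the first search to take in more variants was found in 191 of 248 translated coding sequences. Of the 183 tested genes with it, 62 were higher and 57 lower, and the median was 0.0079. The 51 tested genes without it counted 28 higher and 14 lower, and their median was 0.33. Many of them lie in the mostly higher ZNF628 to ZNF446 cluster, where 43 of 59 genes had the pattern. Their median GC content was also higher, at 47.1% against 41.9% in the tested genes with it. The pattern was not tested apart from cluster and GC content. Lack of the pattern does not show that a protein has no KRAB domain. Of the 46 tested genes with TCCAATCA in the promoter window, 7 were higher and 25 lower. The 159 tested genes whose window lacks it counted 72 higher and 38 lower. By cluster, the genes with the word split into 2 higher and 19 lower of 27 in ZNF101 to ZNF254, where every window held it. In ZNF653 to ZNF791 they split into 5 higher and 5 lower of 16. The word was not tested apart from cluster.

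Overlaps limit some single values. Exons of 79 members overlap a gene on the opposite strand, and the sources used here do not give the strand setting, so reads of such pairs cannot be told apart. Genes named by rule with such an overlap are ZNF358, ZNF561, ZNF627, ZNF93, ZNF100, ZNF726, ZNF146, ZNF260, ZNF790, ZNF428, ZNF473, ZNF578, ZNF665 and ZNF460. The 170 members without such overlap counted 65 higher and 48 lower among 159 tested, close to the split of all members. The median member shared 5.07% of its 50-base words with other genes. The 170 tested members that share under 10% counted 67 higher and 53 lower, and the 64 that share more counted 23 and 18.

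Other groups of genes were set beside the members. ZNF genes on other chromosomes were more often higher, with 133 of 237 tested genes higher, 60 lower and a median of 0.25, and the median fell to 0.14 after the length and GC correction. Total gene count scaling gave 156 higher and 37 lower. The other protein-coding genes of chromosome 19 counted 388 higher and 155 lower of 783 with a median of 0.23. All protein-coding genes counted 5902 and 4378 of 13942 with a median of 0.088. The difference between these groups and the members was not tested. Among 16 tested genes of a list of chromosome 19 zinc finger genes with other names, 7 were higher and 1 lower. Their median was −0.0015. Of these PEG3, a paternally expressed imprinted gene, rose from a mean of 11.5 to 27.3 CPM (1.24, edgeR adjusted p = 8.69e-09), and ZBTB7A, a transcriptional repressor, from 9.95 to 17.7 (0.83, edgeR adjusted p = 7.20e-07). ZFP30 was the lower gene (0.19 lower), and that call was lost without either C4-2-ENZ library, with DESeq2, with no filter on low counts and with total gene count scaling, under which its value was near 0. Total gene count scaling gave 9 higher and 0 lower in this list, and the length and GC correction 6 and 5.

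**Figure D5:**
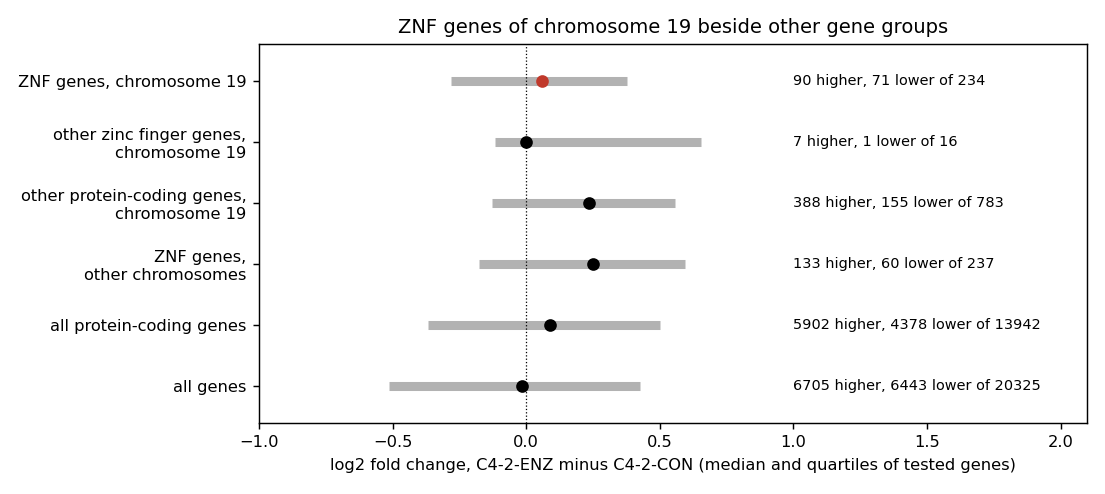
Median (point) and quartiles (bar) of the log2 fold change (x axis) of the tested genes in 6 groups (y axis), with the counts of calls. The ZNF genes of chromosome 19 have a median of 0.058, between all genes (−0.016) and all protein-coding genes (0.088), and the ZNF genes of other chromosomes one of 0.25.

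The proteins through which KRAB zinc finger proteins silence chromatin were examined as a list of 28 genes. Of these 13 were higher and 8 lower, and the median was 0.081. TRIM28, the co-repressor bound by KRAB domains, was at 223 and 253 CPM in C4-2-CON and at 288 and 286 in C4-2-ENZ (0.27, SE 0.051, edgeR adjusted p = 6.44e-04). SETDB1, which methylates histone H3 at lysine K9, was at 57.1 and 56.8 against 60.6 and 60.7 CPM and was not called (0.09, edgeR adjusted p = 0.069). CHD3, the remodeller of the NuRD complex that binds TRIM28, rose from a mean of 217 to 512 CPM (1.24, edgeR adjusted p = 9.60e-11), and ATRX, a remodeller at heterochromatin, by 0.82 (edgeR adjusted p = 1.15e-08). CBX3 (HP1 gamma) fell from a mean of 659 to 293 CPM (1.17 lower, edgeR adjusted p = 1.13e-10), and SUV39H2, an H3K9 methyltransferase, by 1.13 (edgeR adjusted p = 2.00e-08). CBX1 and CBX5, the other HP1 genes, were higher by 0.71 and 0.51, and were named after their values were seen. The balance of the list depended on the processing, with 17 higher and 6 lower under total gene count scaling and 12 and 12 after the length and GC correction.

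The remaining 15 of the 249 members were not tested because of few counts. Their highest count in any library was 18, and none was at 0 in all 4 libraries. They include ZNF729, ZNF98, ZNF492, ZNF99 and ZNF723 of the ZNF101 to ZNF254 cluster and ZNF536, a gene of neural development. ZNF729, singled out after its values were seen, had 1 and 1 counts in C4-2-CON and 12 and 10 in C4-2-ENZ. The depth-corrected ratio was 6.37, with an exact 95% interval of 1.57 to 55.9 that covers counting error only. That interval is no test either, since ZNF729 was picked by its values.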

How the data were processed

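The values are raw counts of reads per gene in 4 libraries, which the authors deposited as 1 table per library. Alignment used STAR 2.5.2b and the GRCh38 build, and HTSeq did the counting, per the submitters' processing notes. Version, mode, strand setting and annotation of HTSeq were not given in the sources used here. Records that name no gene (55.4% to 74.4% of all records) were left out of library sizes and tests.

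Gene symbols, types and positions came from GENCODE 29, in which 56753 of 60483 identifiers were found. Genes were kept by filterByExpr (minimum count 10), scaled by TMM and tested with edgeR 4.0.16 (R 4.3.3) in a quasi-likelihood fit of the group over all 4 libraries, with 2 residual degrees of freedom and Benjamini-Hochberg adjustment over 20325 genes. Standard errors were derived from the fold change and its F statistic. CPM values use TMM-scaled library sizes, and the biological coefficient of variation was 4.02%. The script was tested on simulated data first. The 2 libraries of each group differed by more than counting noise (chi-square per degree of freedom 5.67 in C4-2-CON and 2.38 in C4-2-ENZ), so none was counted as a repeat of another.

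The members, the lists and the motif were chosen with earlier results of these data known. Named genes are the 10 largest rises and falls among called members with non-overlapping groups and a mean log2 CPM of at least 0, the called gene with the smallest adjusted p in each direction per cluster, the 5 highest members per kilobase, and ZNF91, ZNF93, ZNF274, ZNF473, ZNF331 and ZNF350. From the other lists TRIM28, SETDB1 and the 2 smallest adjusted p-values in each direction were named.

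Fingers and the KRAB pattern were read from translated GENCODE 29 coding sequences, since protein sequences from RefSeq were not used here. The first KRAB search (F-x-D-V/L, then F and E-W) matched 174 genes. Words of 50 bases shared with another gene served as a measure of ambiguous mapping. Alternatives were total gene count scaling, median-of-ratios size factors, DESeq2 1.42.0, other filters on low counts, a length and GC correction (log2 ratio to the mean library fitted on natural splines with 5 degrees of freedom each, used as an offset), a replicate block, leaving out each library, and a border of 0.5 Mb between clusters. A further member of the list of prostate luminal markers is not reported here.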

Additional observations from a re-analysis of the deposited data

How the results depend on the processing

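Counting depth limits genes under about 1 CPM, and 2 libraries a group give 2 residual degrees of freedom. When 1 library was left out, the lone library of its group was assumed to vary like the other group. The causes of the shifts below were not tested. A median is given where it moved by more than 1 SD of the 4 differences between single libraries, and a count of calls where it moved by more than 1.5 times. Median-of-ratios size factors moved no median of the groups given here by that much, and changed the call of ZNF77 only among the genes named by rule, which left 0 lower genes in its cluster.

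With total gene count scaling, which shifts all genes, lower calls were 41 among members, 0 among other zinc finger genes of chromosome 19 and 37 among ZNF genes elsewhere. The medians became 0.25 for members, 0.27 for the co-repressor list, 0.19 for other zinc finger genes of chromosome 19 and 0.44 for ZNF genes elsewhere, and, by cluster from the short-arm end, 0.21, −0.081, 0.37, −0.16, 0.54, 0.13, 0.38, 0.15 and 0.51. ZNF473 (0.033) and ZNF274 (0.11) turned positive.

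With no filter on low counts, the same medians were 0.16, 0.18, 0.095 and 0.34, the cluster medians 0.12, −0.17, 0.30, −0.19, 0.44, 0.034, 0.29, 0.0045 and 0.42, ZNF274 was at 0.019, and 0 other zinc finger genes of chromosome 19 were lower. Requiring CPM above 1 in 2 libraries gave medians of −0.0014 for members, 0.043 for the co-repressor list, 0.20 for ZNF genes elsewhere, and −0.11, 0.11, −0.078 and 0.28 for the ZNF565, ZNF575, ZNF175 and ZNF628 clusters, with 2 other zinc finger genes lower.

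The length and GC correction gave −0.057 for the co-repressor list, 0.14 for ZNF genes elsewhere, 5 lower calls among other zinc finger genes, and −0.14, 0.31, −0.22, 0.011 and 0.17 for the ZNF557, ZNF653, ZNF101, ZNF565 and ZNF628 clusters. With a replicate block together with that correction these were −0.056, 0.14, 5, −0.15, 0.32, −0.22, 0.018 and 0.17. DESeq2 called 72 members higher and 52 lower, and 0 other zinc finger genes lower.

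Replicate numbers showed little sign of pairing, since deviations of same-numbered libraries correlated at −0.023. With 2 libraries per group the value is the same for both numbers by construction, and it does not exclude a shared batch. The replicate block alone gave 88 members higher and 69 lower with a median of 0.056, and changed the calls of ZNF77 and ZNF473 among the genes named by rule.

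Leaving out each library in turn gave 79 to 91 members higher, 54 to 68 lower and a median of 0.038 to 0.085. The co-repressor list gave 13 to 14 higher, 6 to 8 lower and 0.084 to 0.10, other zinc finger genes 7 higher, 0 to 2 lower and 0.041 to 0.083, and ZNF genes elsewhere 117 to 130 higher, 48 to 60 lower and 0.24 to 0.28. Cluster medians ranged from −0.038 to 0.25, −0.34 to −0.17, 0.15 to 0.23, −0.38 to −0.29, 0.27 to 0.39, −0.063 to −0.0027, 0.18 to 0.30, −0.095 to −0.030 and 0.26 to 0.32, in order from the short-arm end. At a border of 0.5 Mb the genes fell into 20 clusters.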
